A study of Rattus norvegicus with 10 samples.

Results

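Glutamate is the main excitatory transmitter of the hypothalamus, and the genes described here encode its receptors, the carriers that load or clear it, and the proteins that hold its receptors at the synapse. AMPA and kainate receptors are ion channels that open on glutamate, NMDA receptors are calcium-permeable channels that also need the membrane to be depolarised, and metabotropic receptors act through G proteins. Vasopressin and oxytocin neurons receive glutamatergic input, and their excitatory innervation is known to be remodelled when rats are dehydrated. Of 47 genes listed, 46 had a probe set annotated with that symbol alone, out of 14217 genes with such a probe set on the array. Members were chosen by symbol, and the probe set with the highest mean signal over the 10 arrays stood for each gene. Bright and dim refer here to that signal, which does not rank transcript levels between genes. No probe set with the symbol Slc17a8 alone was in the table used, and that gene was not analysed here.

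RNA came from the hypothalamic paraventricular nucleus of male Sprague Dawley rats of 10 to 12 weeks, which holds magnocellular vasopressin and oxytocin neurons and parvocellular neurons. Rats dehydrated for 3 days were compared with control rats, which the series title calls euhydrated, to ask which transcripts of this nucleus differ after dehydration. Each group had 5 arrays, each hybridised with RNA pooled from 5 animals, and the pools are described as independent, so the spread is between pools and not between single rats. The supraoptic nucleus is named in the design text, whereas the title and every sample label give the paraventricular nucleus, and the labels were followed. Peptide genes of this nucleus were bright, with mean Avp signals of 4957 ± 642 in dehydrated and 3531 ± 633 in control pools, and mean Oxt signals of 4861 ± 605 in dehydrated and 4090 ± 389 in control pools (SD, n = 5 each). Sim1, a transcription factor gene of this nucleus, was dim, at 79.2 ± 16.5 in dehydrated and 62.1 ± 15.4 in control pools. Otp was dimmer still, with 14.2 ± 3.37 in dehydrated and 5.66 ± 2.63 in control pools, under the level needed for testing. All 5 tested of 6 markers of the nucleus had positive differences. In the limma fit 0 were past the threshold and 2 had an unadjusted p under 0.05, against 12.7% of all tested probe sets. Summed signals of the markers were 9016 to 12153 in dehydrated and 7489 to 9978 in control pools.

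The arrays were alike in overall level, with median signals of 36.4 to 39.1, but control replicate 5 stood apart. Its mean correlation with the other arrays was 0.966, the lowest, against 0.973 to 0.980 for the other 9 arrays. It was the highest or the lowest of the 10 arrays for 22 of the 36 members tested, whereas each other array was so for 3 to 10 of them. Values without this pool are given beside the results for which its removal turned a sign or moved a difference by more than 1.5 times. They are not given for the other probe sets of a gene, the marker genes, or the list of other glutamatergic synapse genes as a whole. The chip numbers in the sample titles run in 1 block for each group, apart from control replicate 5, so array order and group cannot be told apart.

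No member of the set changed past the threshold after dehydration. In a limma fit over 18629 probe sets, 36 members were bright enough to be tested, and 0 of them had an adjusted p under 0.05, where 108 of all tested probe sets did (0.58%). An unadjusted p under 0.05 was found for 4 members, Shank1, Pick1, Slc17a6 and Grik1, or 11.1% of those tested, against 12.7% of all tested probe sets. Without control replicate 5 the counts were 0 and 3. Across members, positive log2 differences (dehydrated minus control) were found for 19 members and negative ones for 17, and without control replicate 5 for 18 each. The median was 0.02, or -0.0060 without control replicate 5, against a median of -0.0048 over all tested probe sets. In 0 of the 36 did all dehydrated values lie on 1 side of all control values, where 3.36% of all tested probe sets were so separated.

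The largest difference in size was that of Homer3 at -0.38 and the next that of Grin3a at 0.30, and 18 of the 36 lay between -0.1 and 0.1. On the log2(signal + 3.72) scale, the 95% interval of the difference lay within 2-fold for 36 of 36 members, within 1.5-fold for 33 (91.7%, against 87.0% of all tested probe sets) and within 1.3-fold for 21 (58.3%, against 55.1%). The 3 members whose intervals passed 1.5-fold were Homer3 (-0.78 to 0.02), Grin2a (-0.25 to 0.74) and Grin3a (-0.02 to 0.62), all with mean signals under 50. Median absolute differences were 0.07 for the 18 members with a mean signal of 100 or more and 0.13 for the 18 below, close to the 0.08 and 0.13 of all tested probe sets in the same ranges. Bulk pools cannot tell fewer cells of a type from less RNA per cell, for these or any of the values below.

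**Figure D1:**
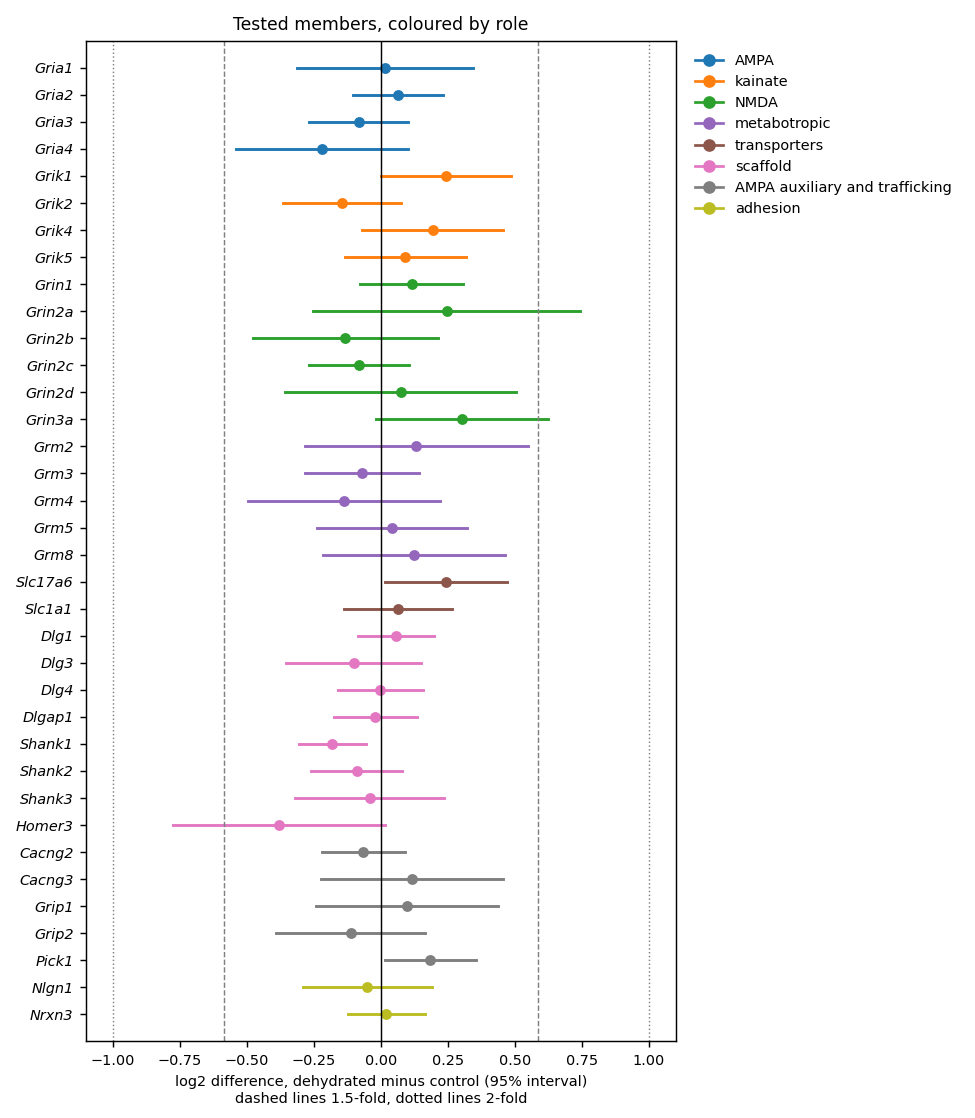
Log2 differences (dehydrated minus control) of the 36 tested members, with 95% intervals of the limma fit, coloured by role; dashed lines mark 1.5-fold and dotted lines 2-fold. Each of the 36 intervals lies inside the dotted lines, and only those of Homer3, Grin2a and Grin3a cross a dashed one.

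The AMPA receptor subunits, which carry fast excitatory transmission, had differences of -0.22 to 0.06. Gria2, whose edited subunit makes the channel nearly impermeable to calcium, was the brightest member of the whole set. Its signals were 1047, 1163, 1245, 1344 and 1414 in dehydrated pools, against 1273, 1147, 1256, 1219 and 1036 in control pools. The groups overlapped: dehydrated replicates 4 and 5 were above all control values, and the lowest 2 values were dehydrated replicate 1 and control replicate 5. The means were 1243 ± 145 in dehydrated and 1186 ± 96.8 in control pools (SD, n = 5 each), which gave a difference of 0.06 ± 0.08 (adjusted p = 0.782) on the log2 scale with a 95% interval of -0.10 to 0.23, and 0.02 without control replicate 5. Gria1, a subunit that can form calcium-permeable receptors without Gria2, had 57.6, 87.4, 95.1, 96.4 and 66.6 in dehydrated pools, against 81.8, 81.2, 93.6, 84.5 and 55.6 in control pools. Its log2 difference was 0.01 ± 0.16 (adjusted p = 0.978), and -0.10 without control replicate 5 (adjusted p = 0.775). Dehydrated replicates 1 and 5 and control replicate 5 were the low pools.

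Gria4, a subunit with fast kinetics, had signals of 71.2, 113, 92.6, 70.3 and 83.5 in dehydrated pools, against 109, 97.3, 119, 113 and 68.1 in control pools, a log2 difference of -0.22 ± 0.15 (adjusted p = 0.569). Control replicate 5 was the lowest of all 10, and without it the difference was -0.35 (adjusted p = 0.216). Gria3 averaged 370.1 ± 33.2 in dehydrated and 394 ± 46.9 in control pools (SD, n = 5 each), and its log2 difference was -0.08 ± 0.09 (adjusted p = 0.728), or -0.15 without control replicate 5. The within-array ratio of Gria1 to Gria2, a measure only of unequal change between the subunits, had log2 values of -4.10, -3.68, -3.66, -3.75 and -4.33 in dehydrated pools, against -3.90, -3.76, -3.69, -3.79 and -4.13 in control pools. The groups overlapped and differed by -0.05 (exact two-sided permutation p = 0.817, n = 5 each, smallest possible p 0.00794), and by -0.12 without control replicate 5.

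Kainate receptor subunits, which modulate release and excitability, held 3 of the 10 tested members with the smallest p, Grik1 and Grik4 with positive differences and Grik2 with a negative one. Grik1 encodes the GluK1 subunit, and its signals were 86.8, 84.9, 91.9, 84.0 and 72.4 in dehydrated pools, against 73.8, 88.7, 69.3, 63.6 and 59.0 in control pools. The highest value was dehydrated replicate 3, but control replicate 2 was above the other 4 dehydrated pools. The log2 difference was 0.24 ± 0.11 (adjusted p = 0.392), and 0.18 without control replicate 5 (adjusted p = 0.477). Grik4, a high-affinity subunit that needs a partner, had 51.2, 45.5, 51.2, 49.9 and 59.6 in dehydrated pools, against 44.6, 52.5, 35.9, 47.3 and 43.3 in control pools. Only dehydrated replicate 5 exceeded the highest control, and the log2 difference was 0.19 ± 0.12 (adjusted p = 0.541).

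Grik2, the GluK2 subunit gene, had a negative difference. Its signals were 91.7, 94.3, 94.8, 90.0 and 80.4 in dehydrated pools, against 118, 87.2, 85.3, 111 and 103 in control pools, or -0.15 ± 0.10 (adjusted p = 0.587) on the log2 scale. The 5 dehydrated values sat between 80.4 and 94.8 and the control values spread from 85.3 to 117.7, overlapping at the low end. Grik5, the other high-affinity partner and the brightest kainate member, had 143, 146, 131, 156 and 107 in dehydrated pools, against 136, 128, 138, 106 and 129.7 in control pools. Dehydrated replicates 1, 2 and 4 were above every control pool while dehydrated replicate 5 was near the lowest control, and the log2 difference was 0.09 ± 0.11 (adjusted p = 0.765). Grik3 was dim, with means of 11.2 ± 4.06 in dehydrated and 12.5 ± 5.28 in control pools, and was not tested.

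**Figure D2:**
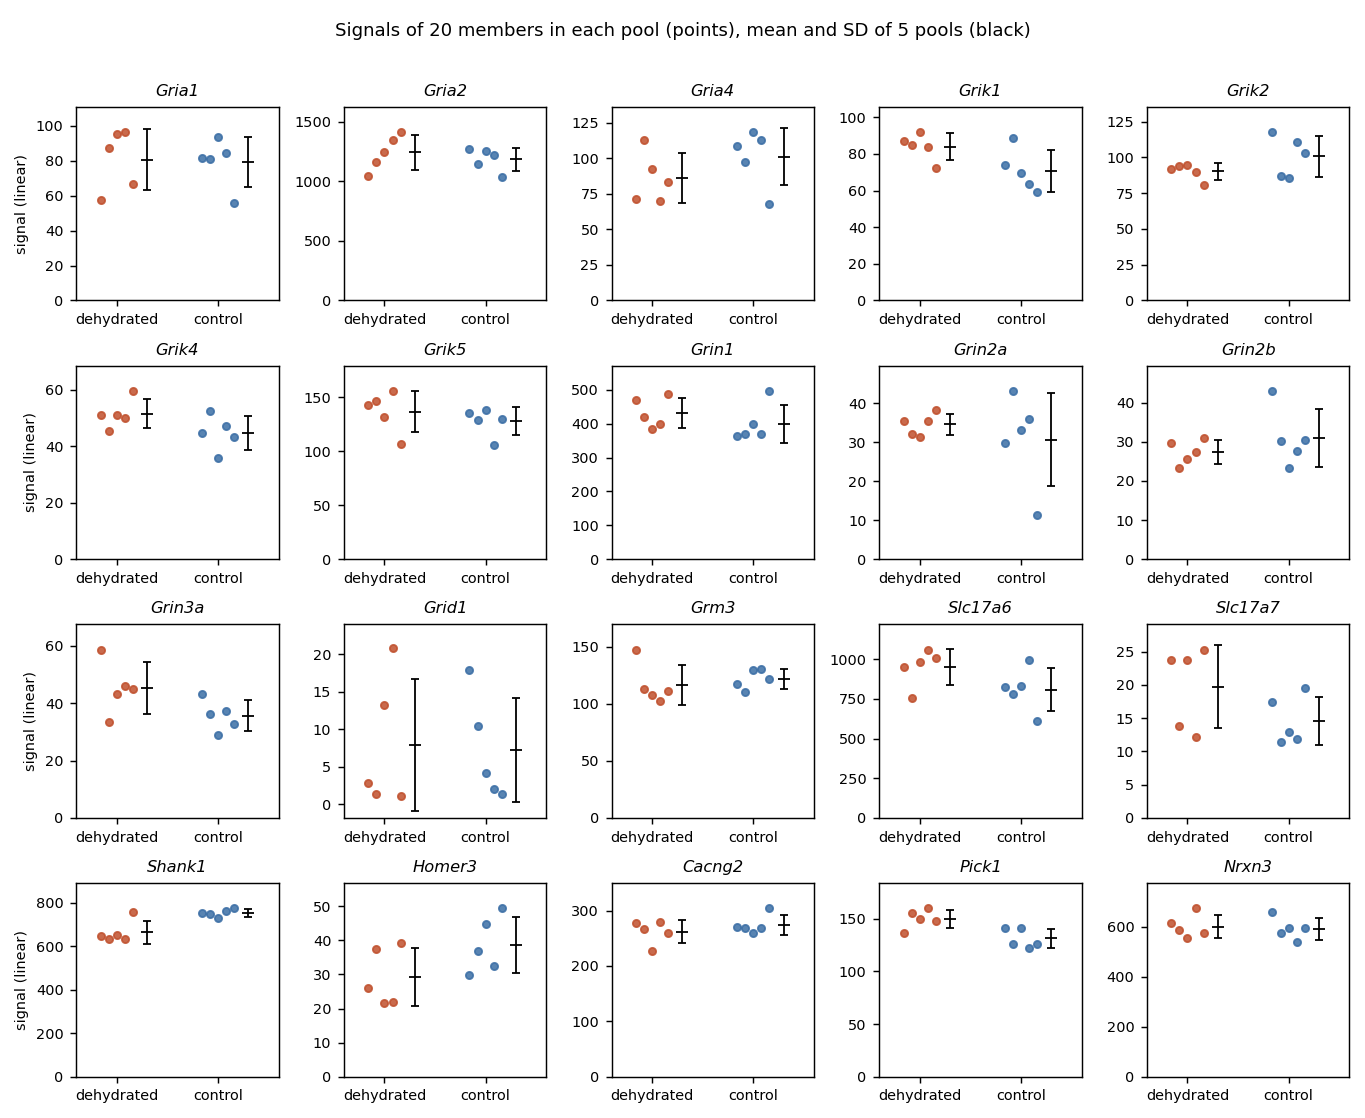
Linear probe set signals of 20 members in each of the 5 dehydrated (left) and 5 control (right) pools, with the mean and SD in black; every signal axis includes 0. The groups overlap in all 20 panels, and Shank1 shows 4 dehydrated pools below all 5 controls.

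NMDA receptor genes averaged small differences in both directions, 4 positive and 2 negative, or 3 and 3 without control replicate 5. Grin1 encodes the subunit that every NMDA receptor contains, and it was the brightest of them. Its signals were 469, 419, 384, 399.5 and 487 in dehydrated pools, against 364, 370.1, 398, 369 and 497 in control pools. Control replicate 5 was the highest of all pools, and the other 4 controls were at or under 398. The log2 difference was 0.12 ± 0.09 (adjusted p = 0.626), and 0.20 without control replicate 5 (adjusted p = 0.234). Grin3a, which lowers the calcium permeability of the receptor, had 58.6, 33.4, 43.1, 45.9 and 44.8 in dehydrated pools, against 43.0, 36.1, 29.0, 37.4 and 32.7 in control pools. Dehydrated replicates 1, 3, 4 and 5 were above every control pool, dehydrated replicate 3 by a margin of 0.1 signal units over control replicate 1, and dehydrated replicate 2 lay among the controls. The log2 difference was 0.30 ± 0.15 (adjusted p = 0.417).

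Of the regulatory subunits that set the receptor's kinetics, Grin2a had signals of 35.5, 32.2, 31.4, 35.4 and 38.3 in dehydrated pools, against 29.8, 43.2, 33.1, 36.0 and 11.4 in control pools. The dehydrated values lay within the control range, and control replicate 5 was low. The log2 difference was 0.25 ± 0.24 (adjusted p = 0.705), and -0.03 without that pool. Grin2b had 29.8, 23.3, 25.7, 27.4 and 30.9 in dehydrated pools, against 43.0, 30.1, 23.2, 27.6 and 30.4 in control pools, a log2 difference of -0.13 ± 0.16 (adjusted p = 0.779), with control replicate 1 the highest of all pools. The log2 ratio of Grin2a to Grin2b was 0.23, 0.41, 0.26, 0.33 and 0.28 in dehydrated pools, against -0.48, 0.47, 0.45, 0.34 and -1.17 in control pools. The dehydrated ratios spanned 0.23 to 0.41 and fell inside the control range, and the group difference was 0.38 (exact two-sided permutation p = 0.437, n = 5 each), or 0.10 without control replicate 5. Both genes were close to the lowest level tested, a mean signal of 24.1.

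Grin2c, prominent in cerebellum and glia, averaged 178 ± 20.8 in dehydrated and 188 ± 13.8 in control pools (SD, n = 5 each) with a log2 difference of -0.08 ± 0.09 (adjusted p = 0.742), or -0.04 without control replicate 5. Grin2d, known from hypothalamus and interneurons, averaged 35.3 ± 10.9 in dehydrated and 33.4 ± 10.8 in control pools with a log2 difference of 0.07 ± 0.20 (adjusted p = 0.910), or 0.23 without that pool. Grin3b was under the test level at 25.6 ± 7.34 in dehydrated and 21.6 ± 5.46 in control pools. The delta receptor gene Grid1, an organiser of synapses, was near 0, with 2.8, 1.3, 13.2, 20.9 and 1.1 in dehydrated pools, against 17.9, 10.4, 4.2, 2.0 and 1.4 in control pools. Each group held values under 5 and values over 10, and the gene was not tested.

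Metabotropic receptor genes included no member among the 10 with the smallest p. Grm3, a presynaptic and astrocytic receptor and the brightest of the class, had 147, 113, 108, 103 and 111 in dehydrated pools, against 117, 110.3, 129, 130.2 and 122 in control pools. Dehydrated replicate 1 was the highest of all pools and the other 4 dehydrated values were near or below the control minimum, and the log2 difference was -0.07 ± 0.10 (adjusted p = 0.805). Grm8, a presynaptic receptor, averaged 91.1 ± 9.08 in dehydrated and 85.5 ± 21.8 in control pools (SD, n = 5 each), and its log2 difference was 0.12 ± 0.16 (adjusted p = 0.788). Control replicate 1 was the lowest pool, at 48.4, and without it the difference was -0.06. Grm5, a postsynaptic receptor coupled to calcium release, differed by 0.04 ± 0.13 (adjusted p = 0.926), and by -0.07 without control replicate 5, its lowest pool. Grm4 and Grm2, both presynaptic, differed by -0.14 and 0.13, and without that pool Grm4 differed by -0.08. Grm6, the receptor of retinal bipolar cells, averaged 17.3 ± 5.45 in dehydrated and 21.3 ± 4.28 in control pools and was not tested. Grm7, a presynaptic receptor, averaged 21.9 ± 4.05 in dehydrated and 25.7 ± 7.30 in control pools and was not tested.

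Among the transporters, Slc17a6 encodes the vesicular glutamate carrier of most hypothalamic and thalamic glutamate neurons, and it was bright. Its signals were 950.1, 758, 981, 1059.9 and 1006 in dehydrated pools, against 827, 779.6, 828, 992 and 612 in control pools. Dehydrated replicates 4 and 5 were above every control pool, dehydrated replicate 2 was below 4 of the 5 controls, and control replicate 5 was the lowest of all. The means were 951 ± 115 in dehydrated and 808 ± 136 in control pools (SD, n = 5 each), which gave a difference of 0.24 ± 0.11 (adjusted p = 0.367) on the log2 scale with a 95% interval of 0.01 to 0.47. Without control replicate 5 it was 0.15 (adjusted p = 0.474). It was the only probe set of that gene. In the same pools 4 of the 5 markers of neighbouring hypothalamus had negative differences. In the limma fit 0 were past the threshold and 3 had an unadjusted p under 0.05, against 12.7% of all tested probe sets. Among the 5, Hcrt had -1.28 (adjusted p = 0.233), Hdc -0.67, Nkx2-1 -0.50, Gal -0.06 and Pmch, the brightest, 0.02. For Gal, control replicate 5 was the lowest of all pools, at 255.7, against 498 to 904 in the other control pools. It was also the lowest control pool for Hcrt and Pmch, and the count of signs was not repeated without it. Hcrt signals ran from 235 to 1027 in dehydrated and from 609 to 2508 in control pools. The 5 had summed signals of 3928 to 6623 in dehydrated and 4315 to 7818 in control pools. Pmch alone had 2979 to 4836 in dehydrated and 3374 to 4404 in control pools. The summed signals of 5 markers of thalamus and zona incerta were 1415 to 1804 in dehydrated and 1195 to 2046 in control pools. The part of these markers, and of the paraventricular ones above, in the Slc17a6 value was not tested.

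Slc17a7, the carrier of cortical and hippocampal glutamate neurons, was under the test level, at 23.7, 13.8, 23.8, 12.1 and 25.3 in dehydrated pools, against 17.4, 11.4, 12.9, 11.9 and 19.5 in control pools. Dehydrated replicates 1, 3 and 5 were above all control pools and the other 2 lay among them. Of 4 measured markers of cortex and striatum, the cortical genes Tbr1 and Neurod6 were also under the test level, with means of 2.72 and 12.2 in dehydrated and 7.86 and 14.1 in control pools. The striatal genes Drd1 and Ppp1r1b were above it, with means of 33.9 and 130.1 in dehydrated and 35.1 and 131 in control pools. The 4 markers together summed to 151 to 220.3 in dehydrated and 156 to 215 in control pools, and their part in the Slc17a7 values was not tested. The log2 ratio of Slc17a6 to Slc17a7 was 5.12, 5.44, 5.16, 6.07 and 5.12 in dehydrated pools, against 5.30, 5.70, 5.64, 5.99 and 4.73 in control pools. It differed by -0.09 (exact two-sided permutation p = 0.754, n = 5 each), by -0.27 without control replicate 5, and by 0.14 with a pseudocount of 64. With Benjamini-Hochberg adjustment over the 3 ratios every one of these exact permutation tests gave an adjusted p of 0.817. Slc1a1, a neuronal glutamate uptake carrier, averaged 265 ± 23.8 in dehydrated and 255 ± 38.1 in control pools (SD, n = 5 each), which gave a difference of 0.06 ± 0.10 (adjusted p = 0.821) on the log2 scale, or 0.15 without control replicate 5.

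The scaffold genes of the postsynaptic density held the smallest p of the set and had negative differences in 7 of 8 tested members. Their median was -0.07, and -0.03 without control replicate 5. Of the 8, 5 were negative without control replicate 5, 5 without dehydrated replicate 3 and 5 with array weights. With the mean over a gene's probe sets, 4 of the 6 then tested were negative, and Shank1 (0.13) and Shank2 (0.20) were positive. That mean also takes in probe sets too dim to be tested. Among these were 1 of Shank1 (mean signal 13.7, difference 0.46) and 1 of Shank2 (mean signal 8.41, difference 0.49). The chosen probe sets had mean signals of 710 and 130. Shank1, a master scaffold of excitatory spines, had 646, 635, 653, 635 and 759 in dehydrated pools, against 754, 749.7, 729, 762 and 775 in control pools. Dehydrated replicates 1 to 4 lay between 635 and 653, under every control pool, and dehydrated replicate 5 lay inside the control range. The means were 666 ± 52.7 in dehydrated and 754 ± 16.9 in control pools (SD, n = 5 each), which gave a difference of -0.18 ± 0.06 (adjusted p = 0.212) on the log2 scale with a 95% interval of -0.31 to -0.06. Without dehydrated replicate 5 the difference was -0.23 (adjusted p = 0.0941), the lowest adjusted p of any member under any alternative run. The other tested Shank1 probe set did not share the direction, at 0.11 (adjusted p = 0.869). It was dim, with a mean signal of 31.8.

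Homer3, an adaptor that links Shank proteins to metabotropic receptors, had 26.1, 37.4, 21.6, 21.9 and 39.1 in dehydrated pools, against 29.8, 37.0, 44.7, 32.6 and 49.4 in control pools. Dehydrated replicates 1, 3 and 4 were below all controls while replicates 2 and 5 were among them. The log2 difference was -0.38 ± 0.19 (adjusted p = 0.413), and -0.29 without control replicate 5. Dlg4 encodes PSD-95, the most studied scaffold of the density, and averaged 237 ± 12.1 in dehydrated and 238 ± 21.8 in control pools (SD, n = 5 each). Its log2 difference was -0.0024 ± 0.08 (adjusted p = 0.992), the smallest of the set, with a 95% interval of -0.16 to 0.16, and 0.05 without control replicate 5. Dlg1, the related scaffold SAP97, differed by 0.06 ± 0.07 (adjusted p = 0.766), and Dlgap1, which joins PSD-95 to Shank, by -0.02 ± 0.07 (adjusted p = 0.932). Without that pool Dlg1 differed by 0.02. Shank2, Shank3 and Dlg3 differed by -0.09, -0.04 and -0.10, and by -0.06, 0.05 and -0.04 without control replicate 5. Dlg2, encoding PSD-93, was dim, with means of 19.2 ± 3.82 in dehydrated and 12.6 ± 7.75 in control pools. The Homer family member Homer2 was also dim, with 14.5 ± 8.75 in dehydrated and 14.5 ± 1.81 in control pools, and neither of these genes was tested.

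Among oligodendrocyte markers in the same pools, all 7 measured of 8 listed had negative differences, 1 past the threshold (Ermn, -0.63, adjusted p = 0.0255) and 6 at an unadjusted p under 0.05. Of all tested probe sets 0.58% were past the threshold and 12.7% had an unadjusted p under 0.05. Summed signals of the oligodendrocyte markers were 6619 to 6834 in dehydrated and 7063 to 8525 in control pools. Of 6 general neuronal markers 2 were positive and 4 negative, with 0 past the threshold in the limma fit, 1 at an unadjusted p under 0.05, and summed signals of 8935 to 10007 in dehydrated and 9361 to 10243 in control pools. The part of these shifts in the scaffold values was not tested.

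Auxiliary and trafficking genes of the AMPA receptor were divided, 3 positive and 2 negative. Pick1, a protein that draws Gria2 subunits away from the membrane, had 137, 155, 150.1, 159.9 and 148 in dehydrated pools, against 141, 126, 142, 122 and 126 in control pools. Dehydrated replicates 2 to 5 were above every control pool, and dehydrated replicate 1 lay below 2 of them. The means were 149.8 ± 8.81 in dehydrated and 132 ± 9.13 in control pools (SD, n = 5 each), which gave a difference of 0.18 ± 0.08 (adjusted p = 0.355) on the log2 scale with a 95% interval of 0.01 to 0.35. It was 0.17 without control replicate 5 (adjusted p = 0.348). Pick1 had a single probe set. Cacng2 encodes stargazin, which carries AMPA receptors to the synapse, and was the brightest of the class. Its signals were 277, 267, 227, 279 and 259.5 in dehydrated pools, against 269.7, 268, 259, 269 and 304 in control pools. The lowest pool was dehydrated replicate 3 and the highest control replicate 5, and the other 8 lay close together; the log2 difference was -0.07 ± 0.07 (adjusted p = 0.757), or -0.03 without that control pool.

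The related Cacng3 differed by 0.12 ± 0.16 (adjusted p = 0.802), or 0.20 without control replicate 5. The Gria2-binding scaffolds Grip1 and Grip2 differed by 0.10 and -0.11, and Grip2 by -0.05 without that pool. Cacng8 was among the dimmest members, with means of 3.44 ± 4.34 in dehydrated and 7.26 ± 1.80 in control pools, and was not tested. Of the adhesion molecules that pair across the cleft, Nrxn3, a presynaptic neurexin, was the brightest. It had 613, 588, 554, 674 and 576 in dehydrated pools, against 659.7, 576, 594, 537 and 597 in control pools. The groups covered each other, with means of 601 ± 46.0 in dehydrated and 593 ± 44.4 in control pools (SD, n = 5 each) and a difference in log2 of 0.02 ± 0.07 (adjusted p = 0.930). Its postsynaptic partner Nlgn1 averaged 210.5 ± 26.8 in dehydrated and 219.5 ± 39.4 in control pools (SD, n = 5 each), with a log2 difference of -0.05 ± 0.11 (adjusted p = 0.883), or -0.10 without control replicate 5. The related Nlgn3, with 11.8 ± 5.71 in dehydrated and 14.7 ± 2.87 in control pools, was too dim to test.

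Several genes were read by more than 1 probe set, and these often disagreed in sign. Of the 46 genes 26 had 2 or more probe sets, 83 probe sets in all. Among the 37 not chosen, 16 were bright enough to be tested. In the limma fit 0 had an adjusted p and 2 an unadjusted p under 0.05, against 0.58% and 12.7% of all tested probe sets. Of these 16, 6 had the sign of the chosen probe set and 10 the opposite one. In each opposite pair at least 1 of the 95% intervals included 0. The share of opposite signs was not computed for other genes with several probe sets. The widest gaps were in Gria3, at -0.08 for the chosen and 0.61 for the other probe set, and Nrxn3, at 0.02 and -0.42 (adjusted p = 0.241). The other Gria3 probe set was dim, with a mean signal of 33.5 against 382 for the chosen one. Its 95% interval was -0.12 to 1.34, and control replicate 5 was its lowest pool, at 5.8. The other Nrxn3 probe set averaged 34.2, against 597 for the chosen one. Gria2 had 0.06 and -0.07, Grin1 0.12 and -0.03, and Cacng2 -0.07 and 0.14. Agreement in sign was found for Gria4 (-0.22 and -0.13), Grin2a (0.25 and 0.43), Grm8 (0.12 and 0.12), Slc1a1 (0.06 and 0.04) and all 3 tested probe sets of Dlgap1 (-0.02, -0.15 and -0.21).

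**Figure D3:**
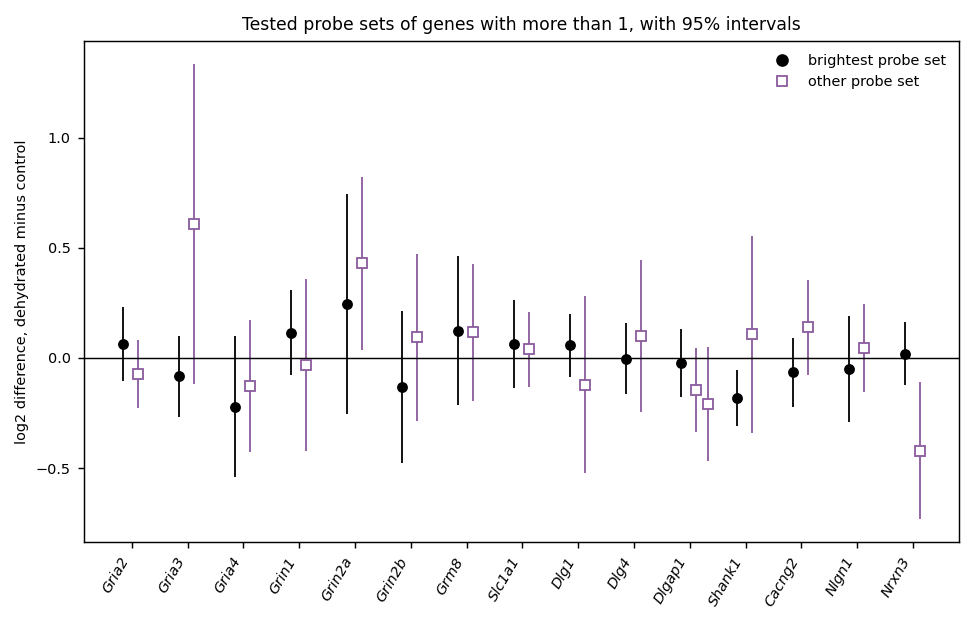
Log2 differences (dehydrated minus control) with 95% intervals for the 15 genes with more than 1 tested probe set; black circles are the chosen, brightest probe sets and open squares the others. In 10 of 16 cases circle and square lie on opposite sides of 0, as for Shank1 (-0.18 and 0.11) and Nrxn3 (0.02 and -0.42).

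Pools differed among themselves within each group. The median SD within groups was 0.180 on the log2 scale, against 0.178 over all tested probe sets. Control replicate 5 was the highest pool for 13 members, among them Grin1, Grin2c, Shank1, Shank3, Homer3 and Cacng2, and the lowest for 9, among them Gria1, Gria2, Grin2a, Grm5 and Slc17a6. Its root mean square deviation from the control means was 0.316 (log2), where the other 9 arrays had 0.164 to 0.208 from the means of their own groups.

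**Figure D4:**
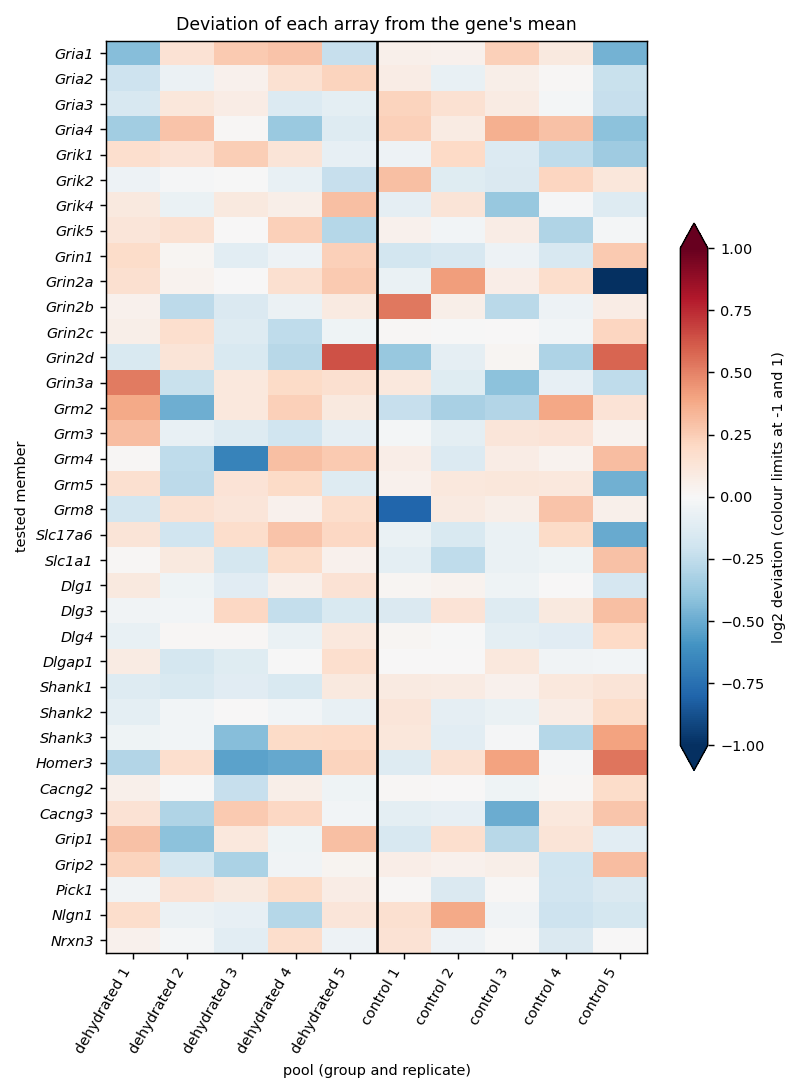
Deviation of each pool from the gene's mean over the 10 arrays, on the log2 scale, for the 36 tested members (rows, ordered by role) and the 5 dehydrated and 5 control pools (columns, divided by a line). No row shows 1 colour on each side of the line, and control 5, the last column, holds the highest or lowest value in 22 rows.

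Other genes of glutamatergic synapses, in a list of 56 that are no members, held 2 changes. Of these 45 had a probe set and 35 were tested in the limma fit. In dehydrated pools 2 of these were lower and 0 higher past the threshold, and 4 had an unadjusted p under 0.05. The matching background shares, over all tested probe sets and in either direction, were 0.58% and 12.7%. The median difference of the list was -0.07, against -0.0048 for that background. The list was chosen with earlier results of these data known. Glud1, glutamate dehydrogenase, which turns glutamate into a Krebs cycle intermediate, fell in dehydrated pools. Its signals were 939, 1085, 994, 1025 and 1036 in dehydrated pools, against 1310.3, 1171, 1216, 1236 and 1414 in control pools. All 5 dehydrated values lay below all 5 control values. Groups were apart in this way, in either direction, for 3.36% of all tested probe sets. The log2 difference of Glud1 was -0.32 ± 0.06 (adjusted p = 0.0236). That call ended with the removal of any of 4 arrays, dehydrated replicate 1, 3 or 4 or control replicate 1 (adjusted p up to 0.0703), without a filter (0.0640), without the variance trend (0.129) and with the mean over its probe sets (0.0696). Its second probe set differed by -0.35 (adjusted p = 0.163).

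Nptx1, a secreted pentraxin that clusters AMPA receptors, also fell in dehydrated pools. Its signals were 439, 354, 303, 416 and 455 in dehydrated pools, against 487, 619.9, 668, 557 and 483 in control pools. All dehydrated values lay below all control values, and the log2 difference was -0.52 ± 0.11 (adjusted p = 0.0474). Its call ended with the removal of any of 8 arrays, all except dehydrated replicate 5 and control replicate 5, at up to 0.127. It also ended after median centring (0.0561), without a filter (0.108), without the variance trend (0.155), with a robust fit (0.0519) and with the mean over probe sets in place of the chosen ones (0.0558). The next smallest p were those of the glutamine carrier Slc38a2 at 0.21 (adjusted p = 0.267), Arc, an activity-induced regulator of AMPA receptor uptake, at 0.29 (adjusted p = 0.377), the kinase subunit Camk2b at 0.12 (adjusted p = 0.422) and the scaffold Dlgap4 at -0.18 (adjusted p = 0.441), or -0.10 without control replicate 5. The second tested Camk2b probe set had the opposite sign, at -0.10 (adjusted p = 0.649), and the mean over both gave 0.01. Glud1 is expressed by astrocytes as well as neurons. Of 7 astrocyte markers 2 were positive and 5 negative, a count that was not repeated without control replicate 5. In the limma fit 0 were past the threshold and 2 had an unadjusted p under 0.05, against 12.7% of all tested probe sets. The nearest was Gfap at -0.38 (adjusted p = 0.0553) and the glutamate uptake gene Slc1a3 had -0.01 (adjusted p = 0.937). Their summed signals were 10814 to 12106 in dehydrated and 11204 to 12570 in control pools. Their part in the Glud1 value was not tested.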

How the data were processed

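Total RNA from 10 pools of 5 rats each was hybridised to 10 Affymetrix Rat Genome 230 2.0 arrays. The deposited values were used as probe set intensity on a linear scale, as the authors made them with GCOS 1.2 per the submitters' processing notes. How GCOS computed and scaled the signals is not given in the sources used here. Of 31099 probe sets, 57 controls were left out. GEO's platform annotation gave 1 symbol to 20826 of the rest, several to 436, and did not list 9780. Values were taken as log2(signal + 3.72), the pseudocount being 0.1 of the median signal, and probe sets with a mean signal under the 40th percentile (24.1) were left out, leaving 18629.

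Groups were compared with limma 3.58.1 in R 4.3.3 (lmFit, eBayes with a variance trend) and Benjamini-Hochberg adjustment over all tested probe sets, at 0.05. Errors of log2 differences are standard errors. The fit's script was tested on simulated data. Ratios of 2 members within an array were compared with an exact permutation test. The number of arrays limits the precision.

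Values in every pool are given for the 10 tested members with the smallest p, the brightest member of each role class and the 6 genes of the ratios. Other genes are named from lists only, up to 6 of the other synapse genes by smallest p. The members and all lists were chosen with earlier results of these data known. The alternatives were median centring, quantile normalization, larger pseudocounts, other filters, no variance trend, a robust fit, array weights, the mean over a gene's probe sets, and leaving out each array.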

Additional observations from a re-analysis of the deposited data

Results flagged for a closer look

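Each group of 5 pools was examined for 1 pool whose distance to its nearest neighbour took up most of the range of the group. This was so for 8 of the 78 groups examined (10.3%), where chance gives about 5%, and 4 of the 8 were control replicate 5. Among the receptors, Grin1 was at 497 in control replicate 5, against 364 to 398 in the other control pools. Grin2c was at 213 there, against 179 to 184. Grm5 was at 52.9 there, against 77.7 to 81.5. The stargazin gene Cacng2 was at 304 there, against 259 to 269.7.

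The other values stood in different pools. Grm3 was at 147 in dehydrated replicate 1, against 103 to 113 in the other dehydrated pools. Shank1 was at 759 in dehydrated replicate 5, against 635 to 653. Grm8 was at 48.4 in control replicate 1, against 90.1 to 106 in the other control pools. Dlgap1 was at 355 in control replicate 3, against 320.4 to 330.2.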

How the results depend on the processing

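In each of the 20 alternatives 0 members had an adjusted p under 0.05, the lowest being 0.0941, and 19 of the 36 kept their direction in each alternative that tested them. Of these 19, 10 had a value in all 20, and 9 were missing from 1 or 2, since the filter at the 60th percentile held 25 members and the mean over probe sets 30. Probe sets changed numbered 108, but 64 without a filter, 45 without the variance trend, 201 with array weights, and 46 to 150 when 1 array was left out (46 without dehydrated replicate 3, 150 without control replicate 5). Members with an unadjusted p under 0.05 numbered 4, but 2 after median centring and 1 to 5 with 1 array left out. The median difference of the members stayed between -0.01 and 0.03. Reversals were as follows, and the cause was not tested. Gria1 was -0.0045 after median centring and -0.044 with array weights, which also gave Dlg4 0.037, Grm5 -0.038 and Shank3 0.031. Dlg4 was 0.014 after quantile normalization. With the mean over probe sets, Gria2 was -0.0054, Gria3 0.26, Dlg1 -0.032, Shank1 0.13, Shank2 0.20, Cacng2 0.038 and Nrxn3 -0.20. That mean weighs all probe sets of a gene equally, also those under the 40th percentile. With 1 array left out, differences ran from -0.10 to 0.12 for Gria1, -0.028 to 0.38 for Grin2a, -0.076 to 0.23 for Grin2d, -0.23 to 0.012 for Grm4, -0.073 to 0.11 for Grm5, -0.059 to 0.21 for Grm8, -0.032 to 0.047 for Dlg4, -0.066 to 0.020 for Dlgap1, -0.12 to 0.059 for Shank3, -0.11 to 0.037 for Nlgn1 and -0.022 to 0.059 for Nrxn3. The ratio of Slc17a6 to Slc17a7 was 0.020 with a pseudocount 4 times as large, 0.14 with one of 64, 0.088 with the mean over probe sets and -0.27 to 0.041 with 1 array left out. That of Gria1 to Gria2 was 0.020 with the mean over probe sets and -0.12 to 0.059 with 1 array left out. No paired analysis was possible because replicate numbers only follow accession order and pair nothing. No detection calls were used, so members under the 40th percentile have no bound.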
